A study of Homo sapiens with 16 samples.

Results

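The tumor necrosis factor (TNF) receptor family genes described here are CD40, TNFRSF13B, TNFRSF13C, TNFRSF17, TNFRSF14, FAS and CD27, together with the ligand genes CD70 and LTB. They were taken from the count files by gene symbol, and all 9 symbols were found, each in 1 row among the 62714 genes of a file. RNA-seq was performed on pools of 4 established human B-cell lymphoma lines (SU-DHL4 as line 1 and DOHH2 as line 4, while lines 2 and 3 are SU-DHL10 and OCI-LY7 in an order on which titles and cell line entries differ). In each line either CREBBP, a histone acetyltransferase gene that is often mutated in follicular lymphoma, or the AAVS integration site as the control was cut with a lentiviral Cas9 vector and 4 guides. Both kinds of pool were left at baseline or given IL4 (10 ng/ml, 4 h), which makes the groups AAVS baseline and AAVS IL4 and their CREBBP counterparts, with 1 library per line in each. The paper reports loss of CREBBP protein in the targeted pools, seen by immunoblotting. The cells were not cloned, so uncut or in-frame cells may remain in a pool, and 4 lines are the only replicates.

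Receptors of this family are bound by trimeric ligands on neighbouring cells or in solution, and most of them pass the signal through TRAF adaptors to NF-kappaB. In B cells, TNFRSF13C (BAFF receptor), TNFRSF13B (TACI) and TNFRSF17 (BCMA) serve survival and antibody secretion at successive stages, CD40 receives T-cell help, and FAS carries a death domain that recruits caspases. TNFRSF14 (HVEM) engages BTLA, LIGHT and lymphotoxin alpha and is often lost in follicular lymphoma, CD27 and its ligand CD70 form a costimulatory pair, and LTB encodes the membrane anchor of the lymphotoxin heterotrimer.

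The libraries held 19649735 to 61981976 counts. CREBBP itself, in CPM (the count scaled to the library's total) for lines 1 to 4, measured 268.9, 205.0, 359.6 and 245.9 at AAVS baseline and 278.0, 190.7, 187.4 and 270.3 at CREBBP baseline (log2 fold change -0.11 ± 0.21 SE, edgeR quasi-likelihood adjusted p = 0.851), and small insertions or deletions need not lower a transcript. With IL4 it measured 315.0, 190.5, 314.5 and 378.8 in the AAVS pools and 214.4, 69.9, 244.6 and 218.5 in the CREBBP pools. The lines carried their B-cell markers, with a summed level of the 10 markers of 2976 CPM or more in every library. CR2, 1 of these 10, was at 0 to 0.799 CPM outside AAVS IL4 and at 7.90 to 42.2 CPM within it. The AAVS IL4 libraries stood apart from the other 12. They held IGHM at 138 to 1711 CPM and CD44 at 67.5 to 941 CPM, against at most 0.0696 and 0.472 CPM elsewhere, and IGHD at 6.98 to 126 CPM, against 0 in each of the other 12. Of 13 T-cell markers 11 lay above all other libraries there, with CD2 at 0 in those 12, and the summed T-cell level was 41.5 to 275 CPM against 2.55 to 38.5 CPM. Of 10 naive or memory B-cell markers 6 did the same, with a sum of 874 to 4838 CPM against 121 to 255 CPM. Of 8 plasma cell markers 5 did so too, among them IRF4 at 49.3 to 362 CPM against at most 1.25 CPM, while their sum (407 to 2366 CPM) overlapped with that of the other libraries (120.1 to 1041 CPM). The part of these transcripts in any value that uses the AAVS IL4 libraries was not tested, and in bulk RNA more cells of a type cannot be told apart from more RNA per cell. The comparison of CREBBP IL4 with CREBBP baseline, that of the pools at baseline, and the comparison of the lines do not use them.

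**Figure D1:**
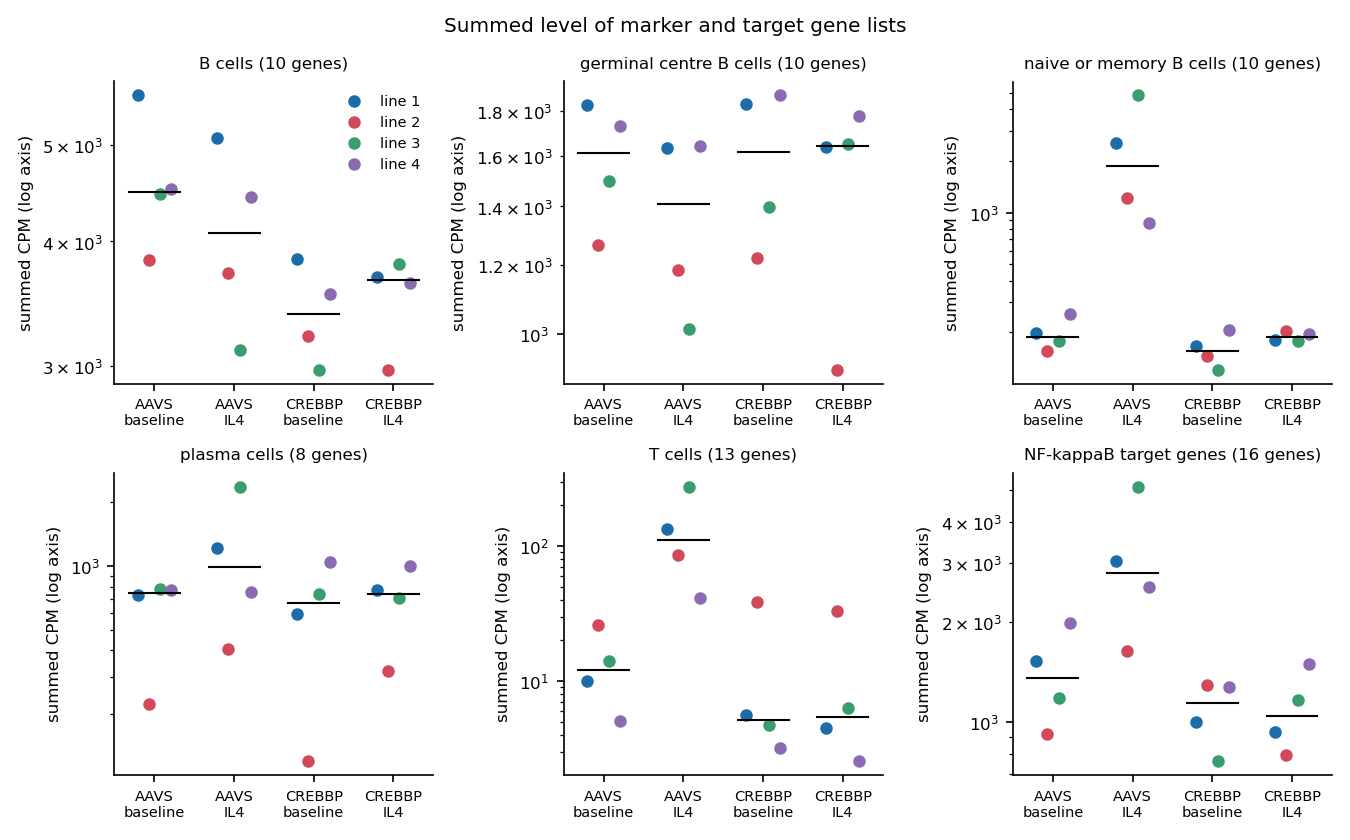
Summed CPM (log axis) of 5 marker lists and of the NF-kappaB target genes in the 16 libraries, with points coloured by line and bars at the group medians. The T-cell sums were 41.5 to 275 CPM with IL4 in the AAVS pools and at most 38.5 CPM in the other groups, whereas the B-cell sums overlapped between groups.

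Levels per kilobase of the canonical transcript ordered the members in the AAVS baseline pools as follows. CD27 was highest, with 133.6 ± 62.9 CPM per kb (SD, n = 4), followed by TNFRSF13C with 72.6 ± 35.9 and CD40 with 53.0 ± 22.5. LTB (16.3 ± 6.19), CD70 (14.1 ± 9.27), TNFRSF17 (10.9 ± 2.81) and TNFRSF14 (6.30 ± 4.73) formed a middle group, FAS lay at 1.69 ± 3.10, and TNFRSF13B came last at 0.0281 ± 0.0355. Neighbours in this order overlapped over the 4 lines, except that every line of CD40 (at least 32.5 CPM per kb) lay above every line of LTB (at most 25.2), and every line of FAS (at least 0.121) above every line of TNFRSF13B (at most 0.0738). Dividing by all annotated exon bases instead kept the first 3 places and the last 3, and put TNFRSF17 at place 4. The lines thus carried ample transcript of the BAFF receptor, CD40 and CD27 and almost none of TACI.

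**Figure D2:**
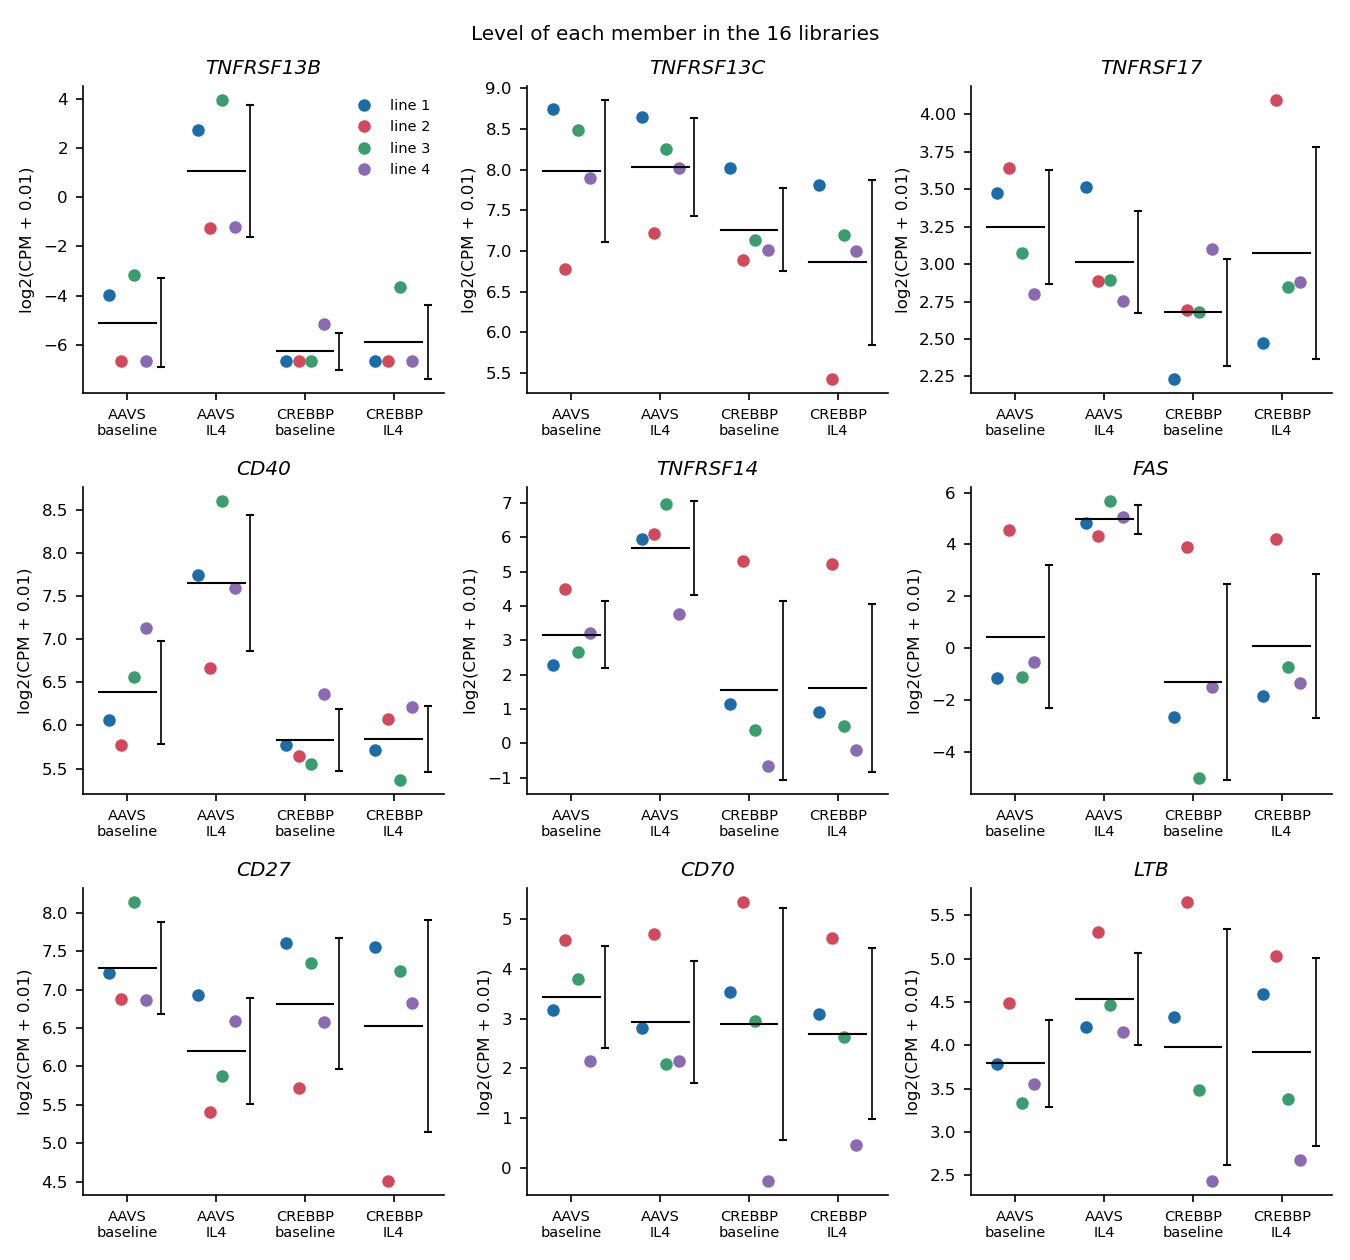
log2(CPM + 0.01) of the 9 genes in the 16 libraries, with points coloured by line, horizontal bars at the group means and error bars of 1 SD (n = 4). A library with no count sits at the lowest point of the TNFRSF13B panel, line 2 is above the other lines for FAS, TNFRSF14 and CD70 in the 12 libraries outside AAVS IL4, and TNFRSF13B is above all other libraries in the 4 AAVS IL4 ones.

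TNFRSF13B encodes TACI, a receptor for BAFF and APRIL that drives class switching and plasma cell responses. Its gene (ENSG00000240505) lies on GRCh38 chromosome 17 from 16929816 to 16972118 on the minus strand. The 250 bases before its start are shown because it was the only member called in a comparison between conditions by edgeR under the settings used throughout. They were taken from RefSeq (GRCh38.p14, chr17:16972119-16972368, minus strand) and are printed 5′ to 3′, with capitals at matches to a general NF-kappaB motif, GGG and CC with any 5 bases between them. That motif and a STAT6 motif, TTC and GAA with any 4 bases between them, were searched on both strands, STAT6 being the factor that IL4 activates.
TNFRSF13B: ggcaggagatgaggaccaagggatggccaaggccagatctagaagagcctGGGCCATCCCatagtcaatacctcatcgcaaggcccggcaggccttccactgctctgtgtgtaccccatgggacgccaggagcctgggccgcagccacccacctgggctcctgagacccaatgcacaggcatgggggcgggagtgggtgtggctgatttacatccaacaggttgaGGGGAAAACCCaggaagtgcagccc
The window held 3 matches to the NF-kappaB motif, of which the pair nearest to the start overlaps, and none to the STAT6 motif. Of 35093 windows of this length, 54.4% held the former and 5.4% the latter, so a match to the NF-kappaB motif is common.

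TNFRSF13B was counted 3, 0, 5 and 0 times at AAVS baseline in lines 1 to 4 and 169, 14, 305 and 20 times with IL4. In CPM this was 0.0535, 0, 0.103 and 0 at baseline and 6.59, 0.412, 15.5 and 0.419 with IL4. All 4 IL4 libraries lay above all baseline ones, as for 6.34% of all genes tested, with lines 1 and 3 far above lines 2 and 4. Counts in the CREBBP pools were 0, 0, 0 and 1 without IL4 and 0, 0, 3 and 0 with it, and a count of 0 allows up to 0.0484 to 0.103 CPM in these libraries. Over the group, 508 counts with IL4 against 8 at baseline in the AAVS pools gave a ratio of rates of 99.0 (exact 95% interval 49.9 to 230.7, counting error only), and against the 3 counts of the CREBBP IL4 pools the ratio was 257 (87.5 to 1251). TNFRSF13B was the only member above all other 12 libraries in the AAVS IL4 group, as were 4.4% of all genes tested. The summed T-cell and naive or memory B-cell levels in the same AAVS IL4 libraries were likewise highest in line 3 (275 and 4838 CPM) and second in line 1 (135 and 2542 CPM), as was the summed plasma cell level (2366 and 1215 CPM). This order was not particular to TNFRSF13B. The ratio of AAVS IL4 to AAVS baseline was also highest in line 3 and second in line 1 for CD40 (4.12 and 3.21), TNFRSF14 (19.6 and 12.9) and FAS (113 and 63.1). It was highest in line 3 and second in line 2 for LTB, and highest in another line for TNFRSF13C, TNFRSF17, CD27 and CD70. The part of the marker transcripts in the values of these members was not tested. TNFRSF13B also shares 615 exon bases with ENSG00000290698 and 274 with TBC1D27P, both on its own strand. TBC1D27P had 1 count in all 16 libraries together.

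TNFRSF13C, the BAFF receptor that mature B cells need to survive (chromosome 22, 41922032 to 41926806, minus strand), measured 430.0, 109.9, 360.2 and 239.2 CPM in lines 1 to 4 at AAVS baseline and 399.8, 148.9, 306.4 and 259.1 CPM with IL4. In cells targeted at CREBBP it was 258.5, 118.6, 140.7 and 129.1 CPM before IL4, against 225.3, 43.0, 146.3 and 128.3 CPM after it. IL4 left the AAVS values within 0.851 to 1.35 times the baseline of the same line, and the AAVS value was above the CREBBP value in 3 of 4 lines at baseline and in all 4 with IL4. TNFRSF17 (chromosome 16, 11965210 to 11968068, plus strand) encodes BCMA, a receptor of plasma cells. It measured 4.69 to 17.1 CPM over all 16 libraries, and no comparison called it. Its highest value, 17.1 CPM, was that of line 2 in the CREBBP IL4 group, where the other lines had 5.55 to 7.34 CPM.

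CD40, the receptor for CD40 ligand on helper T cells (chromosome 20, 46118271 to 46129863, plus strand), measured 67.1, 54.7, 94.4 and 140.2 CPM in lines 1 to 4 at AAVS baseline and 215.0, 101.5, 388.9 and 192.8 CPM with IL4. It was higher with IL4 in each of the 4 lines, by 1.37 to 4.12 times, and line 3 was highest. CREBBP-targeted cells measured 54.6, 50.1, 47.0 and 82.1 CPM before IL4, against 52.6, 67.5, 41.3 and 74.4 CPM after it, within 0.878 to 1.35 times of one another in a line. With IL4 the lowest AAVS pool was above the highest CREBBP pool.

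TNFRSF14 (chromosome 1, 2555639 to 2565382, plus strand) measured 4.79, 22.5, 6.34 and 9.28 CPM at AAVS baseline, against 61.7, 68.5, 124.1 and 13.4 CPM after IL4, which is higher in each line by 1.45 (line 4) to 19.6 times (line 3). In CREBBP-targeted cells it was 2.22, 39.2, 1.295 and 0.618 CPM before IL4, against 1.88, 37.5, 1.41 and 0.871 CPM after it. Line 2 had 22.5 CPM or more in every library, while lines 1, 3 and 4 of the CREBBP pools had at most 2.22 CPM. The 109 bases before the RefSeq start (GRCh38.p14, chr1:2556262-2556370, plus strand) that no annotated transcript uses as untranslated region are shown to set them beside the TACI window, with the same capitals.
TNFRSF14: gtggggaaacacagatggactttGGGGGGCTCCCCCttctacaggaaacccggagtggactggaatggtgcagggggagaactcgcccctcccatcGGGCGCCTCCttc
The 4 overlapping NF-kappaB matches at the run of G and C and the single one near the start fall in this stretch. The 250-base window held 1 match to the STAT6 motif, TTCAGCAGAA, 219 bases before the start, which made TNFRSF14 the only one of the 5 members with a window (TNFRSF13B, TNFRSF14, FAS, CD27 and LTB) to have one. TNFRSF14 shares 826 exon bases with the antisense gene TNFRSF14-AS1. That gene was at 1.34, 11.1, 1.74 and 5.35 CPM at AAVS baseline, against 8.23, 21.7, 20.3 and 4.28 CPM after IL4. Whether the counting used strand is not given in the sources used here, so reads from the shared bases cannot be told apart.

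FAS, whose product triggers apoptosis on binding FAS ligand (chromosome 10, 88953813 to 89029605, plus strand), split the lines. At AAVS baseline it measured 0.446, 23.4, 0.452 and 0.687 CPM in lines 1 to 4, and with IL4 28.1, 20.005, 51.1 and 32.9 CPM. The 3 lines that were low at baseline were 47.9 to 113 times higher with IL4, and line 2, which was high at baseline, was 0.853 times its baseline. The CREBBP pools measured 0.151, 15.0, 0.0216 and 0.345 CPM before IL4, against 0.274, 18.5, 0.603 and 0.387 CPM after it. Lines 1, 3 and 4 stayed under 1 CPM in both CREBBP groups, where their values rest on 1 to 26 counts. ACTA2, which shares 387 exon bases with FAS on the other strand, was at 1.80 CPM or less in every library. FAS further shares 1899 exon bases with ENSG00000286116 on the other strand and 166 with STAMBPL1 on its own, and STAMBPL1 was at 17.5 to 34.7 CPM throughout. Reads from these shared bases cannot be assigned with certainty.

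CD27, a receptor of memory and germinal centre B cells (chromosome 12, 6444955 to 6451718, plus strand), measured 149.1, 118.0, 281.7 and 116.6 CPM at AAVS baseline, against 122.3, 42.5, 59.0 and 96.8 CPM after IL4. It was lower with IL4 in each line, at 0.209 to 0.830 times the baseline. The values after CREBBP targeting were 195.0, 52.9, 163.2 and 95.7 CPM before IL4, against 187.5, 22.8, 151.1 and 113.0 CPM after it. Line 2 was lowest in each of these groups but AAVS baseline, where line 4 was. CD27 shares 562 exon bases with CD27-AS1, which was at 13.5 CPM or less throughout.

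CD70, the ligand of CD27 (chromosome 19, 6583183 to 6604103, minus strand), was at 9.02, 24.2, 13.8 and 4.45 CPM at AAVS baseline, against 7.06, 26.1, 4.22 and 4.40 CPM after IL4. Values in CREBBP pools were 11.7, 40.8, 7.73 and 0.818 CPM before IL4, against 8.48, 24.8, 6.17 and 1.36 CPM after it. Line 2 was highest in all 4 groups. CD27 was above CD70 per kilobase of transcript in the AAVS baseline group, by the values given above.

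LTB (chromosome 6, 31580525 to 31582522, minus strand) measured 13.8, 22.5, 10.1 and 11.7 CPM at AAVS baseline, against 18.4, 39.7, 22.1 and 17.8 CPM after IL4, higher in each line by 1.34 to 2.20 times. Values in CREBBP pools were 20.1, 50.3, 11.2 and 5.40 CPM before IL4, against 24.0, 32.8, 10.4 and 6.39 CPM after it. Line 2 was highest in all 4 groups. The bases before the LTB start (GRCh38.p14, chr6:31582428-31582674, minus strand) are shown because LTB is a textbook NF-kappaB target.
LTB: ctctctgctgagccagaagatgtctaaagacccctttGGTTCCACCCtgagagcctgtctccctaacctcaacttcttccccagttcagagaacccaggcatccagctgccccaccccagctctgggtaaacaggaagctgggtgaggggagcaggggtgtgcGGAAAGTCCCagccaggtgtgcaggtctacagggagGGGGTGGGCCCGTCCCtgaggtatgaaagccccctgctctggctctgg
It held 6 matches to the NF-kappaB motif, 4 of them overlapping, against 3 for TNFRSF13B, 6 for TNFRSF14 and 2 for FAS in windows of 250 bases. The CD27 window, with 1 match, lies at a RefSeq start 1063 bases from the canonical start and is not set beside them.

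To ask whether IL4 changed these genes in control pools, AAVS IL4 was compared with AAVS baseline, with the line as a block. At an adjusted p under 0.05, 1 of 9 members was called, TNFRSF13B, against 2.4% of the 20310 genes tested. With 8 counts at baseline it passed the filter on low counts only through the AAVS IL4 libraries, so that it had to differ, and a filter of 10 counts in each library leaves it untested and calls no member. Its fitted log2 fold change was 6.89 ± 0.55 (SE, edgeR adjusted p = 0.00464), which depends on the prior count at such low baseline values. FAS (4.92 ± 1.35, adjusted p = 0.153), TNFRSF14 (2.48 ± 0.64, adjusted p = 0.131), CD40 (1.21 ± 0.26, adjusted p = 0.08), LTB (0.68 ± 0.21, adjusted p = 0.191) and CD27 (-1.12 ± 0.40, adjusted p = 0.253) had an unadjusted p under 0.05 but did not pass. With TNFRSF13B these were 6 members, and 3257 of the 20310 genes had an unadjusted p under 0.05. TNFRSF13C (-0.01 ± 0.22), TNFRSF17 (-0.30 ± 0.25) and CD70 (-0.53 ± 0.40) did not reach an unadjusted p under 0.05, and the 95% interval for TNFRSF13C ran from -0.54 to 0.52. The median over the 9 members, TNFRSF13B included, was 0.68 and over all genes tested 0.01. Without line 2, FAS was called at 5.99 (edgeR adjusted p = 0.000976, and 9.89e-08 to 0.632 over all alternatives), and without line 1, TNFRSF13B was not (adjusted p = 0.0543, and 5.93e-20 to 0.0621 over all alternatives). DESeq2 called 5 members, adding FAS, TNFRSF14, CD40 and CD27, and the fit without the line block called none (TNFRSF13B, adjusted p = 0.0621). Over all genes DESeq2 called 2062 of 20310 and the fit without the block 467, while 1035 of 20992 were called without line 2 and 64 of 20640 without line 1.

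The same question was asked of the CREBBP pools. None of the 8 members tested was called by edgeR, as for 0% of all 18282 genes, and 502 genes but 0 members had an unadjusted p under 0.05, while DESeq2 called 1 gene and 0 members. TNFRSF13B had too few counts to be tested. Fitted log2 fold changes ran from -0.35 ± 0.19 for TNFRSF13C to 1.06 ± 0.47 for FAS, whose 95% interval of -0.01 to 2.13 rests on few counts in 3 lines. The 95% interval was -0.45 to 0.56 for CD40 (0.05), -0.33 to 0.59 for TNFRSF14 (0.13) and -0.40 to 0.38 for LTB (-0.01). The median over the 8 members was 0.02, against -0.04 over all genes tested.

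**Figure D3:**
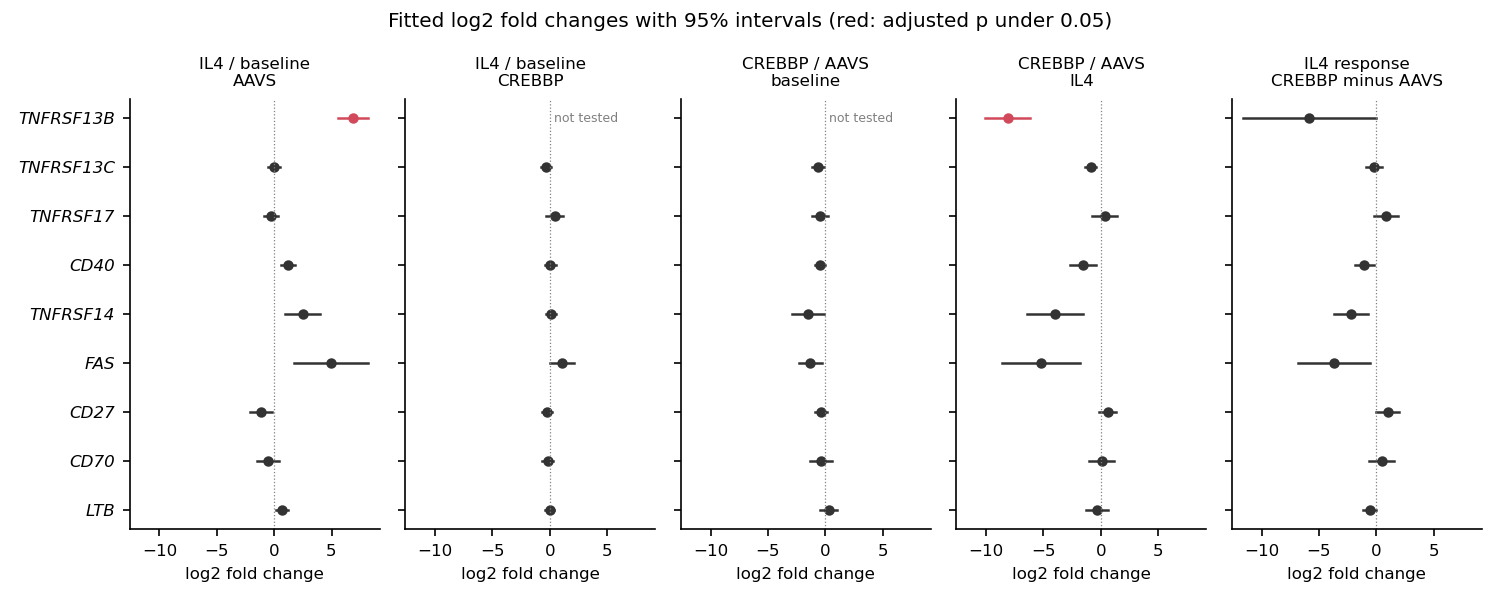
Fitted log2 fold changes of the 9 genes (points) with 95% intervals (lines) in 5 comparisons, red where the adjusted p was under 0.05. Only TNFRSF13B is red, at 6.89 for IL4 in the AAVS pools and at -8.11 for CREBBP against AAVS pools with IL4, and the intervals in the CREBBP pools all include 0.

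The effect of CREBBP targeting without IL4 was read from CREBBP baseline against AAVS baseline. The test called 0 of 8 members (edgeR, 0% of all 18936 genes), as did DESeq2, although 4 members and 2422 genes had an unadjusted p under 0.05. These 4 were all lower in the CREBBP pools: TNFRSF14 (-1.48 ± 0.62, adjusted p = 0.365), FAS (-1.31 ± 0.46, adjusted p = 0.312), TNFRSF13C (-0.62 ± 0.24, adjusted p = 0.339) and CD40 (-0.45 ± 0.20, adjusted p = 0.385). FAS and CD40 were lower in 4 of 4 lines, and TNFRSF14 and TNFRSF13C in the 3 lines other than line 2. Without line 2, TNFRSF14 was called lower at -2.27 (edgeR adjusted p = 0.0399, and 0.00079 to 1 over all alternatives). That setting called 515 of 19206 genes, against 0 with every line. LTB (0.30 ± 0.33), CD27 (-0.36 ± 0.24), CD70 (-0.35 ± 0.44) and TNFRSF17 (-0.47 ± 0.30) had intervals that include 0. The median over the 8 members was -0.46, against -0.03 over all genes tested.

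With IL4, 1 of 9 members was called between CREBBP and AAVS pools, TNFRSF13B, lower by a fitted log2 value of -8.11 ± 0.84 (edgeR adjusted p = 0.00704), against 4.39% of the 19581 genes tested. With 3 counts in the CREBBP IL4 libraries it again passed the filter only through the AAVS IL4 group and had to differ. FAS (-5.23 ± 1.44, adjusted p = 0.082), TNFRSF14 (-4.00 ± 1.03, adjusted p = 0.0716), TNFRSF13C (-0.90 ± 0.22, adjusted p = 0.0647) and CD40 (-1.54 ± 0.49, adjusted p = 0.107) were lower in 4 of 4 lines without passing. For TNFRSF13B, FAS and CD40 the highest CREBBP library lay under the lowest AAVS one, as for 12.9% of all genes. Without line 2, CD40 (-2.001), FAS (-6.28), TNFRSF14 (-4.94) and TNFRSF13B were called, and without line 3 no member was (TNFRSF13B, adjusted p = 0.11, and 1.01e-13 to 0.11 over all alternatives). Over all genes, 2547 of 20535 were called without line 2 and 25 of 20088 without line 3, against 859 of 19581 with every line. TNFRSF13B entered these fits too only through the AAVS IL4 group. CD27 (0.60 ± 0.32), LTB (-0.33 ± 0.39), CD70 (0.08 ± 0.46) and TNFRSF17 (0.32 ± 0.47) had intervals that include 0. This comparison shares the AAVS IL4 libraries, with their T-cell and naive or memory B-cell transcripts, with the AAVS IL4 response.

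Whether IL4 acted differently in the 2 kinds of pool was tested in a single model of 16 libraries. None of the 9 members was called by edgeR, against 0.638% of the 21932 genes tested, and 4 members and 2927 genes had an unadjusted p under 0.05. The fitted differences of these 4 were -5.84 ± 2.57 for TNFRSF13B (edgeR adjusted p = 0.368), -3.69 ± 1.43 for FAS (0.298), -2.24 ± 0.67 for TNFRSF14 (0.187) and -1.05 ± 0.37 for CD40 (0.255), all toward a smaller response in the CREBBP pools. TNFRSF13B had 1 count at CREBBP baseline and 3 with IL4. It entered this model only through the AAVS IL4 libraries, so its direction was fixed in advance under every setting. Without line 2, FAS was called (-4.75, edgeR adjusted p = 0.0326, and 2.23e-09 to 1 over all alternatives), and DESeq2 called TNFRSF14 and TNFRSF13B. Over all genes, 264 of 22162 were called without line 2 and 1099 of 21932 by DESeq2. A different response of the members in the CREBBP pools thus did not pass this test.

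**Figure D4:**
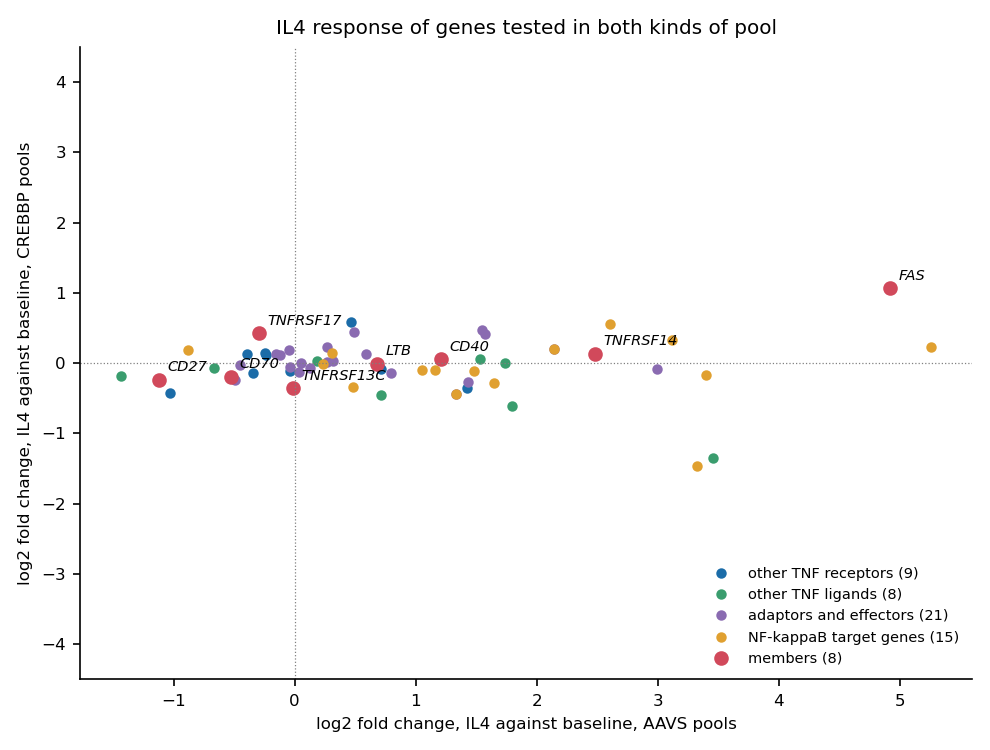
Fitted log2 fold change with IL4 in the AAVS pools (x) and in the CREBBP pools (y) for genes tested in both, coloured by list, with the members named. TNFRSF14, CD40 and FAS sit at 2.48, 1.21 and 4.92 on the x axis and at 0.13, 0.05 and 1.06 on the y axis, and TNFRSF13B is absent because it could not be tested in the CREBBP pools.

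The members were also compared among the 4 lines. Over the 12 libraries outside AAVS IL4, 6 of the 8 members tested differed among lines (edgeR F test, 3 degrees of freedom), against 43.2% of the 20002 genes tested. They were FAS (adjusted p = 1.38e-06), CD70 (0.000411), TNFRSF14 (0.000483), TNFRSF13C (0.000825), LTB (0.00177) and CD27 (0.00207), and CD40 (0.561) and TNFRSF17 (0.286) did not pass. Line 2 held FAS at 19.0 ± 4.24 CPM (SD, n = 3 libraries), against 0.0216 to 0.687 CPM in the 9 libraries of lines 1, 3 and 4. It held TNFRSF14 at 33.1 ± 9.20 CPM against 0.618 to 9.28 CPM, and CD70 at 29.9 ± 9.45 CPM against 0.818 to 13.8 CPM. These 3 members did not overlap between line 2 and the rest, being higher, as for 8.49% of all genes. TNFRSF13C, at 90.5 ± 41.4 CPM in line 2 against 128.3 to 430.0 CPM elsewhere, was lower without overlap, as for 10.2% of all genes. Without line 2, FAS (edgeR adjusted p = 0.825) and TNFRSF14 (0.393) no longer differed among the remaining lines, and CD70, CD27, LTB and TNFRSF13C still did. Line 4 had the lowest LTB and CD70 means (7.84 ± 3.41 and 2.21 ± 1.96 CPM), and line 1 the highest TNFRSF13C mean (305 ± 110 CPM). The libraries of a line come from the same cells, so these p-values describe these 4 lines and not lymphoma lines at large.

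The direct partners of the members were mostly near the limit of detection in the 12 libraries. TNFSF13B (BAFF) was at 0 to 0.736 CPM, TNFSF13 (APRIL) at 0.514 to 1.89 CPM, CD40LG at 0.0484 to 0.582 CPM, TNFSF14 (LIGHT) at 0 to 0.308 CPM and LTBR, the receptor for the LTA and LTB trimer, at 0 to 0.363 CPM. FASLG had no count in any of the 12 and 0.0589 to 1.63 CPM under AAVS IL4. LTA, which joins LTB in that trimer, was at 0.387 to 80.6 CPM and differed among lines (edgeR adjusted p = 3.07e-06), and BTLA, the inhibitory receptor bound by TNFRSF14, was at 0.583 to 6.17 CPM. CD40LG, a gene of activated T cells, reached 1.26 to 9.01 CPM under AAVS IL4, above all baseline libraries (log2 fold change 3.46 ± 0.65, edgeR adjusted p = 0.052). TNFSF14 was called there (5.15 ± 0.87, edgeR adjusted p = 0.0397), at 0.560 to 3.26 CPM. With 6 counts at AAVS baseline against 153 with IL4, TNFSF14 passed the filter only through the AAVS IL4 libraries and had to differ. CD40LG was also called in the difference of the IL4 response (-4.72 ± 0.91, adjusted p = 0.0459).

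Of 22 other TNF receptors, 18 were tested for IL4 in the AAVS pools and 5 rose, where 2.4% of all genes were called, led by TNFRSF9 (4-1BB, 10.50 ± 0.75), TNFRSF1B (4.41 ± 0.68), TNFRSF4 (OX40, 4.39 ± 0.75) and NGFR (3.15 ± 0.57). TNFRSF9 and TNFRSF4 are costimulatory receptors best known from activated T cells. TNFRSF9 was at 4.36 to 26.3 CPM there and at no more than 0.0248 CPM in the other 12 libraries, with 1398 counts against 2, so it too passed the filter only through these libraries and its fitted value depends on the prior count. TNFRSF4 (41 counts at AAVS baseline against 471 with IL4) and NGFR (31 against 185) likewise needed the AAVS IL4 libraries to pass the filter. The count of 5 receptors set against 2.4% of all genes is therefore no independent support. Of 11 other TNF ligands tested, 1 rose (TNFSF14, with the limit given above), and of 21 adaptors and effectors 2 rose, CFLAR (2.99 ± 0.34), an inhibitor of caspase activation at FAS, and BIRC3 (2.14 ± 0.33). Of 16 NF-kappaB target genes 8 rose, led by CCL22 (7.55 ± 0.83), CD80 (5.26 ± 0.75), TNFAIP3 (3.40 ± 0.27) and CD83 (2.61 ± 0.31). CCL22, with 9 counts at AAVS baseline against 1127 with IL4, likewise passed the filter only through the AAVS IL4 libraries and had to differ. None of these lists had a gene called lower, and the medians of the lists were 1.46 (receptors), 1.53 (ligands), 0.27 (adaptors and effectors) and 1.56 (NF-kappaB targets), against 0.01 over all genes. These medians include genes kept only through the AAVS IL4 libraries, which raises them. In the CREBBP pools only 9 receptors and 8 ligands were tested, against 18 and 11 here, so the medians are not of the same genes. In the same comparison 8 of 13 T-cell, 6 of 10 naive or memory B-cell and 3 of 8 plasma cell markers were called higher, PRDM1 (7.79) and IRF4 (7.77) among the last. Markers such as CD2, IGHM and PRDM1 had only 0, 0 and 20 counts at AAVS baseline. Such markers passed the filter only through the AAVS IL4 libraries and had to differ, so these counts of calls are no independent support.

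In the CREBBP pools IL4 moved none of these 4 lists past the test, with 9, 8, 21 and 15 genes tested and medians of -0.08, -0.13, 0.02 and -0.10, and the 51 genes ran from -1.46 to 0.59. At baseline CREBBP and AAVS pools also had 0 called in each list. With IL4, the CREBBP pools had 1 of 17 other receptors (TNFRSF9, -10.23 ± 0.87), 1 of 11 ligands (CD40LG, -4.57 ± 0.69), 4 of 21 adaptors and effectors (CFLAR -3.29 ± 0.40, TRAF1 -2.17 ± 0.37, BIRC3 -2.04 ± 0.35 and MAP3K14 -1.48 ± 0.30) and 7 of 16 NF-kappaB targets lower, and 0 higher. Over all genes tested, 4.39% were called in this comparison. The leading NF-kappaB targets were CCL22 (-11.44 ± 0.90), CD80 (-5.47 ± 0.86), EBI3 (-4.64 ± 0.47) and TNFAIP3 (-3.79 ± 0.80), and CCL22 had 0 counts in the CREBBP IL4 libraries, so its fitted value is no bound. TNFRSF9, CD40LG and EBI3 had 1, 24 and 35 counts in the same libraries. Like CCL22, they passed the filter only through the AAVS IL4 group and had to be lower, so their calls are no independent support. The IL4 response differed between the pools for 3 adaptors and effectors (CFLAR -2.97 ± 0.37, BIRC3 -1.84 ± 0.36 and TRAF1 -1.67 ± 0.31) and for 5 NF-kappaB targets (EBI3, TNFAIP3 at -3.46 ± 0.30, NFKB2 at -1.82 ± 0.28, and BIRC3 and TRAF1, which are in both lists). Of all genes tested, 0.638% were called for that difference.

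Over the 16 libraries, the genes most alike to each member in pattern were found by the root-mean-square difference of centred log2 CPM profiles among 13826 protein-coding genes. For FAS these were ZNF234 (0.607), GCA (0.675) and PARP14 (0.777), beside a spread of FAS itself of 3.10. For TNFRSF14 they were FGFR1 (0.708), CEMIP2 and HELZ2, for TNFRSF13B ABCB1 (0.507), SIGLEC14 and SCML1, and for CD40 IRF9 (0.294), CHD2 and BACH1. TNFRSF13C was nearest to GSN (0.227), P2RX1 and TMC6, TNFRSF17 to TAF9 (0.289), LPXN and MYL12A, and CD27 to ARHGEF18 (0.273), CERS4 and BLK. CD70 was nearest to ZBED3 (0.554), PYCARD and ATF5, and LTB to USP28 (0.387), AAR2 and NME4. TNFRSF13B had no count in 8 of the 12 libraries outside AAVS IL4, so its profile there rests on the prior count. The spread of TNFRSF17 itself was only 0.53. All points share their libraries and depth, and no member was among the 3 nearest of another.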

How the data were processed

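RNA-seq of 16 libraries was used. The authors trimmed reads with Cutadapt 2.3, aligned them to GRCh38 with STAR 2.7.8a and deposited expected counts per gene from RSEM 1.3.3, as whole numbers and not normalized. The methods name a stranded kit, and whether the counting used strand is not given in the sources used here. Groups came from the labels, with the line as replicate. CPM here is the count divided by the library's total. Genes were kept by filterByExpr, scaled with TMM and tested with edgeR 4.0.16 (quasi-likelihood, line as a block, R 4.3.3), with Benjamini-Hochberg adjusted p-values over all genes. SEs and 95% intervals are from the same fits. DESeq2 1.42.0 was an alternative, as were other scalings and filters, no block, each line left out, and 1 model of all libraries. Exact intervals and the counting floor of 3 counts cover counting error only. The script was tested on simulated data. Positions are from GENCODE release 44, which held 62639 of the 62714 genes, and promoter windows from RefSeq, whose table held 5 of the 9 members. Named were the 9 members, up to 4 called genes per list and comparison with the largest change, the direct ligands and receptors of members, and per member its 3 most alike genes. Named beyond this rule, after their values were seen, were TNFRSF14-AS1, CD27-AS1, ACTA2, STAMBPL1, TBC1D27P and 2 genes without a symbol as overlapping genes and IGHM, IGHD, CD44, CD2, CR2, IRF4 and PRDM1 as markers. The members and lists were chosen with earlier results of these data known. The paper's methods name DESeq2 without a formula for the lines. The same line number marks the same cell line, which pairs the libraries (median correlation of deviations within lines 0.227 to 0.685, lowest -0.0782 in line 3). Libraries of a group were not copies (chi-square per degree of freedom at least 111).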

Additional observations from a re-analysis of the deposited data

Results flagged for a closer look

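In 11 of 36 groups of 4 libraries, the highest library lay apart from the other 3 by more than Dixon's 95% limit. Independent normal values would pass it in about 1 in 20 groups. These are CPM values of 4 different lines that recur in every group, so the 11 flags do not measure an excess over chance. Line 2 gave 7 of these, and its FAS was at 23.4 CPM at AAVS baseline, 15.0 CPM at CREBBP baseline and 18.5 CPM in the CREBBP IL4 group, where the other lines stayed under 1 CPM. Its TNFRSF14 was at 39.2 CPM at CREBBP baseline and 37.5 CPM with IL4, its TNFRSF17 at 17.1 CPM in the CREBBP IL4 group, and its CD70 at 26.1 CPM in the AAVS IL4 group. Line 1 stood apart for TNFRSF13C at CREBBP baseline (258.5 CPM) and TNFRSF17 in the AAVS IL4 group (11.4 CPM). The last pair are TNFRSF13B values of 0.0182 CPM (line 4, CREBBP baseline) and 0.0696 CPM (line 3, CREBBP IL4), which rest on 1 and 3 counts where the other 3 libraries had none.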

How the results depend on the processing

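Of the fitted log2 fold changes of members under the alternatives, 439 kept their direction and side of the threshold, 36 passed it anew, 3 no longer passed and 23 changed sign, and the levels all stayed within 1 SD. For IL4 in the AAVS pools, where the test called 1 member, no filter on low counts gave 5, at least 10 counts in every library 0, DESeq2 5, one model of 16 libraries 2, and leaving out a line 0 to 2. Over all genes the same settings called 1851 of 38148, 25 of 14373, 2062 of 20310, 1270 of 21932 and 64 to 1035, against 488 of 20310 in the main fit. For CREBBP against AAVS pools with IL4, also 1, total counts without TMM gave 4, no filter 4, at least 10 counts 2, DESeq2 5, one model 5, and leaving out a line 0 (line 3) to 4 (line 2). Here the calls over all genes were, in that order, 1331 of 19581, 3466 of 37104, 682 of 13591, 4154 of 19581, 4393 of 21932 and 25 to 2547. The main fit called 859 of 19581, so more members were called where more genes were. At baseline, where 0 were called, no filter gave 1 and leaving out a line 0 to 1, and for the difference of the 2 responses, also 0, no filter gave 2, DESeq2 2 and leaving out a line 0 to 1. Among all genes, these settings called 586 of 35938 and 0 to 515 at baseline. For the difference they called 1191 of 39680, 1099 of 21932 and 16 to 264. IL4 in the CREBBP pools gave 0 under every alternative. Without the replicate block, IL4 in the AAVS pools gave 0 and CREBBP against AAVS pools with IL4 gave 1, and the block changed no other call of a member.

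The value that changed sign by the most was TNFRSF14 at baseline, from -1.48 to 0.062 without the replicate block. TNFRSF13C with IL4 in the AAVS pools was 0.055 with total counts and -0.194 to 0.08 without a line. With IL4 in the CREBBP pools LTB was 0.019 with the size factors of DESeq2 and with DESeq2 itself and 0.01 in one model, and without a line TNFRSF17 was -0.038 to 0.676, CD40 -0.225 to 0.232 and LTB -0.089 to 0.118. At baseline, without the replicate block, CD70 was 0.308, and without a line CD70 was -0.775 to 0.219 and LTB -0.00021 to 0.736. Between pools with IL4, CD70 was -0.217 with total counts, -0.016 with at least 10 counts and -0.022 in one model, LTB was 0.009 without the replicate block, and without a line TNFRSF17 was -0.112 to 0.742 and CD70 -0.163 to 0.523. The difference of the responses of TNFRSF13C was -0.44 to 0.037 without a line. The causes were not tested.

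Genes called over the whole table moved more. In the AAVS pools 488 became 25 with at least 10 counts, 64 without line 1 and 2062 with DESeq2, and between pools with IL4 859 became 25 without line 3 and 4393 in one model. At baseline 0 became 511 with DESeq2 and 515 without line 2, and the 140 of the difference of responses became 2 without the replicate block and 1191 without a filter. Total counts moved the median of all genes between pools with IL4 from -0.053 to -0.328, and the share of called genes that were higher in the CREBBP pools from 22.0% to 4.2%, against 37.0% with DESeq2. TNFRSF13B, and FAS outside line 2, had few counts, 0 to 36 a library outside AAVS IL4, which limits their values there.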
